A study of Mus musculus with 12 samples.

Results

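The levels of 10 genes that mark T cells or act in them were compared across the kidney cortex of mice with and without HIV-associated nephropathy. The 10 genes were Cd3d, Cd3e, Cd3g, Cd4, Cd5, Cd8a, Lck, Thy1, Ltb and Il2rg, taken by symbol from the 55450 genes of the deposited table, and all 10 were found once. RNA came from the outer cortex of kidneys of 12 mice aged 12 weeks, in 4 groups of 3 mice: wild-type (WT) mice given INT-747, Tg26 mice given INT-747, WT mice given nicotinamide riboside (NR) and Tg26 mice given NR. Every mouse thus received an agent, and the treatment difference measured here is INT-747 against NR. INT-747, or obeticholic acid, activates the bile acid receptor FXR, and NR is a vitamin B3 form from which cells make NAD. Tg26 is a mouse line whose transgene is an HIV-1 provirus lacking parts of gag and pol, driven by the viral long terminal repeat, so its expression is not limited to one cell type. The sources used here give neither strain, doses nor length of treatment.

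T cells recognise peptides on MHC molecules through the T cell receptor, whose alpha and beta chains carry no signalling tail and rely on the CD3 gamma, delta and epsilon chains. The coreceptors CD4 and CD8 bind MHC class II and class I and bring the kinase Lck to the receptor, while CD5 dampens the signal. In nephropathies of many kinds T cells enter the interstitium between the tubules, together with macrophages. Not all of the 10 genes belong to T cells alone: Thy1 is also made by fibroblasts and neurons, Il2rg and Ltb by other lymphocytes, Il2rg by myeloid cells, and Cd4 and Cd8a by some mouse dendritic cells. In bulk tissue, fewer T cells and less RNA per T cell cannot be told apart.

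The CD3 genes lie together on chromosome 9, and their start regions are shown because all 3 chains are needed for 1 receptor complex. In mm10 (GENCODE M21), Cd3g spans chr9:44969572-44980431 on the minus strand, Cd3d chr9:44981786-44987339 on the plus strand and Cd3e chr9:44998740-45009627 on the minus strand. Cd3g and Cd3d are transcribed away from each other from starts separated by a gap of 1354 bases, and 11400 bases lie between Cd3d and Cd3e. Lck is shown with its 2 annotated starts, 15269 bases apart on chromosome 4. In mouse, the distal start is known for use in mature T cells and the proximal one for use in thymocytes. The deposited counts are per gene and do not divide between those starts. Windows run from 250 bases before to 50 bases after the RefSeq start (GRCm38.p6), 5′ to 3′ on the gene's strand, and 8 of the 10 genes had at least 1 window, 9 in all. Capitals mark any of 4 motifs, read on both strands. The letters searched were AGGAAG, bound by factors of the ETS family. For the RUNX family they were TGTGGT, and for the T cell factors TCF1 and LEF1 they were CTTTGA. The E-box of the form known from E proteins was searched as CAGGTG. The reverse complement of each was marked as well. No marked stretches overlap.
Cd3g, chr9:44980382-44980681, minus strand: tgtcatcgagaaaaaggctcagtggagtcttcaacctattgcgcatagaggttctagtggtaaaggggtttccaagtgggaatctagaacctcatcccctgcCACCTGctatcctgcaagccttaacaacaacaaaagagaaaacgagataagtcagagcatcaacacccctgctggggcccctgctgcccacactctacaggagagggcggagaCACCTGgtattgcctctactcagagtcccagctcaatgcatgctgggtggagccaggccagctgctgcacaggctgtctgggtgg
Cd3d, chr9:44981536-44981835, plus strand: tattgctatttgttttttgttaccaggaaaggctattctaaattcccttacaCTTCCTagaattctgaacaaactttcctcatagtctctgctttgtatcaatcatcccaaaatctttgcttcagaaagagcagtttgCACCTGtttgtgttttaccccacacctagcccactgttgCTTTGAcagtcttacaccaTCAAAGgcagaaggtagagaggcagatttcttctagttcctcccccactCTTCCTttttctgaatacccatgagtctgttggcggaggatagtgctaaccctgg
Cd3e, chr9:45009562-45009861, minus strand: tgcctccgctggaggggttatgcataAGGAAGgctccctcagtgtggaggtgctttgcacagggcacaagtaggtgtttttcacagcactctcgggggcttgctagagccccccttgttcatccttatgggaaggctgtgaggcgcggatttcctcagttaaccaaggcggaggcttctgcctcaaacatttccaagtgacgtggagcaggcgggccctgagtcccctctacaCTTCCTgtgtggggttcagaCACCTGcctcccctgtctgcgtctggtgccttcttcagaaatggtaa
Lck distal start, chr4:129573592-129573891, minus strand: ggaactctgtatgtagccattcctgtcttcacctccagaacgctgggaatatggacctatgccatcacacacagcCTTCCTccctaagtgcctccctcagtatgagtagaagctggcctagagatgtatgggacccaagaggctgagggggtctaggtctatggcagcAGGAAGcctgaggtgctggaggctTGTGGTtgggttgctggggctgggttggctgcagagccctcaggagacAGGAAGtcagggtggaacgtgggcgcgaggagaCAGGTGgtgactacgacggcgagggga
Lck proximal start, chr4:129558323-129558622, minus strand: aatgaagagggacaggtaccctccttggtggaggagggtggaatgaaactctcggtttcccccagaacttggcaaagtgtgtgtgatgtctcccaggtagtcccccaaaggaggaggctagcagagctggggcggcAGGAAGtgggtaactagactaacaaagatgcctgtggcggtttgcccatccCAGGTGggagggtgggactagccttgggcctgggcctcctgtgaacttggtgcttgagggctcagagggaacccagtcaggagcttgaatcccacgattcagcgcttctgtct

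The CAGGTG E-box was found in all 5 printed windows and at 2 places in that of Cd3g, and the ETS letters in 4 of them. Over the 8 genes, the ETS letters occurred in 6, the E-box in 6, RUNX in 2 (Il2rg and the distal window of Lck) and TCF1/LEF1 in 1 (Cd3d). Counted by window, 7 of the 9 held the ETS letters, 7 the E-box, 2 RUNX and 1 TCF1/LEF1. Among 32851 windows of the same length the shares were 35.351% for ETS, 20.212% for the E-box, 16.761% for RUNX and 16.003% for TCF1/LEF1. These are matches of letters only, and no binding was measured.

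Total counts per library ran from 22286343 to 28952177, and 15708 genes passed a filter on low counts, among them all 10 T cell genes. Cd3g and Cd5 reached the level of this filter, 10 counts in a library of median size, in 4 and 3 Tg26 libraries and in no WT library. Both were thus tested because they were high in Tg26 mice, and counts of genes are also given over the other 8. Not all of these 8 passed through WT libraries alone. Ltb reached the level in 1 WT and 4 Tg26 libraries, Cd3e in 2 and 5, and Cd3d in 2 and 2. With only the WT groups compared, 5 of the 10 genes passed the filter. Levels are counts-per-million (CPM) after TMM scaling, which corrects for differences in RNA composition. Markers of kidney cortex (Umod, Slc34a1, Lrp2 and 3 others) summed to 9479 to 13649.6 CPM in every library, so the tissue label was borne out. Tg26 replicate 3 under NR stood apart from the other 11 libraries. It had 5816 counts of Xist and 0 counts of Y-linked genes, the pattern of a female, against 1 to 8 and 3031 to 5263 in the others, the pattern of males. Comparisons of the T cell genes that include this library are also given without it.

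The CD3 chains were scarce, at 1 to 42 counts per library. Cd3g stood at 0.314, 0.223 and 0.130 CPM in WT replicates 1, 2 and 3 under INT-747 and at 0.311, 0.178 and 0.235 CPM in those under NR. In Tg26 mice it stood at 0.463, 0.519 and 0.436 CPM under INT-747 and at 1.14, 1.27 and 0.230 CPM under NR. Its Tg26 and WT levels did not overlap under INT-747, and under NR replicates 1 and 2 were high while the third was at the WT level. Cd3e stood at 0.269, 0.521 and 0.303 CPM in WT mice under INT-747 and at 0.311, 0.223 and 0.470 CPM in WT mice under NR. In Tg26 mice Cd3e was at 0.505, 1.04 and 0.610 CPM under INT-747 and at 1.23, 0.781 and 0.0766 CPM under NR. The last of these, 2 counts, was the lowest Cd3e level of the 12 libraries, and the levels of both genotypes overlapped under each treatment. The span of Cd3e overlaps Gm48720 on its own strand and the antisense Gm48719. Whether exons are shared was not examined, and the strand setting of the counting is not stated. Whether reads of these genes entered the Cd3e counts is thus not known here. Cd3d was the least even of the 3 in WT mice, at 0.135, 0.521 and 0.303 CPM under INT-747 and 0.0887, 0.491 and 0.0392 CPM under NR. In Tg26 mice Cd3d was at 0.379, 0.319 and 0.305 CPM under INT-747 and at 1.08, 0.493 and 0.230 CPM under NR. Replicate 1 under NR, with 37 counts, was the 1 high library for Cd3d. Over 3 mice each, Cd3d had 14 counts in WT mice under NR, with an exact 95% Poisson interval of 7.65 to 23.5, and 55 (41.4 to 71.6) in Tg26 mice under NR. These intervals cover counting error only, not the spread between mice, and 37 of the 55 counts came from replicate 1. The levels of both genotypes overlapped under NR, at adjusted p = 0.287 in edgeR. Under INT-747 Cd3d had 24 counts in either genotype.

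Cd4 (chr6:124864692-124888221) reached the highest level relative to WT mice, 8.46 times the mean of the 6 WT libraries in Tg26 replicate 1 under NR. It was at 0.673, 0.819 and 0.606 CPM in WT mice under INT-747 and at 0.666, 0.402 and 0.627 CPM in WT mice under NR. In Tg26 mice it was at 1.22, 2.91 and 0.436 CPM under INT-747 and at 5.34, 3.90 and 1.26 CPM under NR. All 3 Tg26 mice under NR lay above all 3 WT mice under NR, the female library included, and the groups overlapped under INT-747. Cd8a (chr6:71373427-71379173) was at 0.448, 0.558 and 0.476 CPM in WT mice under INT-747 and at 0.532, 0.268 and 0.157 CPM in WT mice under NR. In Tg26 mice Cd8a was at 0.505, 0.878 and 0.218 CPM under INT-747 and at 1.46, 1.07 and 0.727 CPM under NR. Like Cd4, Cd8a separated the genotypes under NR and overlapped under INT-747.

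The balance of the coreceptors can be read as the share of Cd4 in the counts of Cd4 and Cd8a together, which is not a share of cells. It was 78.5% in both Tg26 replicates 1 and 2 under NR, with exact 95% binomial intervals of 72.7% to 83.6% and 70.1% to 85.5%, and 63.5% (48.96% to 76.4%) in replicate 3. Tg26 mice under INT-747 had 70.7%, 76.8% and 66.7%. The WT mice ranged from 55.6% to 80.0%, on 9 to 22 counts of Cd4 each, and the interval of each WT library overlapped those of the Tg26 libraries. The intervals cover counting error only.

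**Figure D1:**
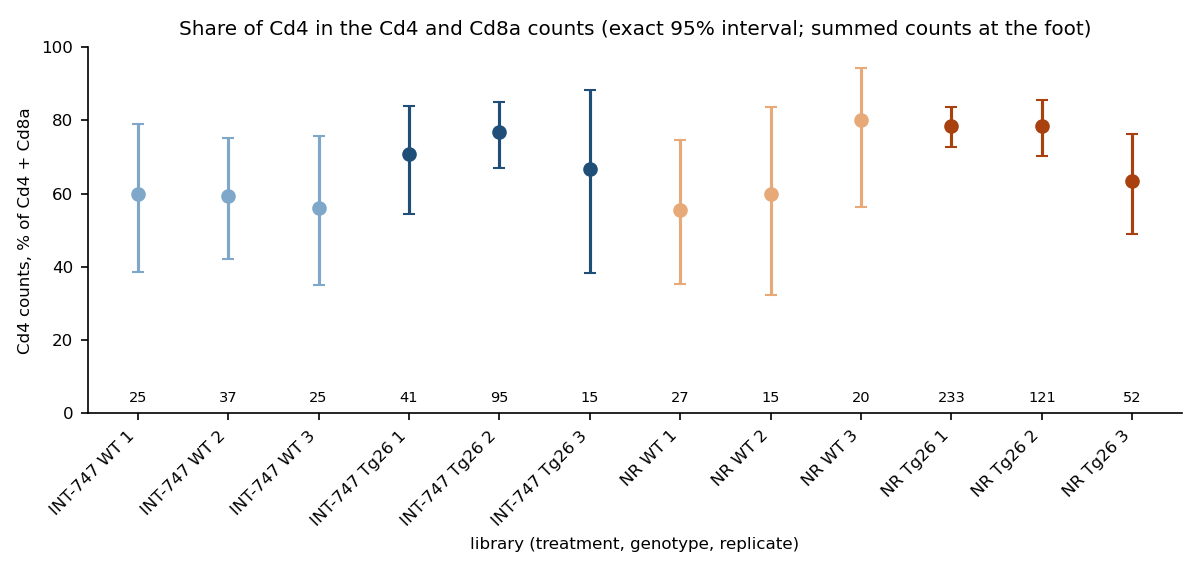
Share of Cd4 in the summed counts of Cd4 and Cd8a (y axis, percent) in each of the 12 libraries (x axis, by group), with bars for exact 95% binomial intervals. The 2 Tg26 libraries with most counts, replicates 1 and 2 under NR, both stand at 78.5%, within the intervals of 3 of the 6 WT libraries.

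Lck (chr4:129548344-129573641), the kinase that starts signalling at the receptor, was at 1.21, 1.3 and 1.43 CPM in WT mice under INT-747 and at 1.11, 0.714 and 0.784 CPM in WT mice under NR. In Tg26 mice it was at 1.31, 2.60 and 1.39 CPM under INT-747 and at 3.12, 2.38 and 0.574 CPM under NR. Replicate 2 under INT-747 and replicates 1 and 2 under NR were high, and the female library had the lowest Lck level of all 12. Cd5 (chr19:10717116-10739002), which restrains receptor signalling and is found on B-1 cells as well, was nearly absent in WT mice. It had 2, 8 and 5 counts in WT mice under INT-747 (0.0897, 0.298 and 0.217 CPM) and 1, 2 and 2 counts in WT mice under NR (0.0444, 0.0892 and 0.0784 CPM). In Tg26 mice Cd5 was at 0.253, 0.519 and 0.174 CPM under INT-747 and at 0.935, 1.07 and 0.153 CPM under NR. The 3 Tg26 mice under NR lay above the 3 WT mice under NR, though the latter rest on 5 summed counts, with an exact 95% Poisson interval of 1.62 to 11.7. This interval covers counting error only. Thy1 (chr9:44043384-44048579), a surface glycoprotein on mouse T cells, was at 0.942, 1.08 and 0.736 CPM in WT mice under INT-747 and at 0.488, 0.669 and 0.392 CPM in WT mice under NR. In Tg26 mice Thy1 was at 0.968, 1.68 and 0.610 CPM under INT-747 and at 4.53, 1.44 and 0.459 CPM under NR. Replicate 1 under NR stood far above every other library for Thy1, and the genotypes overlapped under both treatments.

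Ltb (chr17:35194439-35196320), which encodes lymphotoxin beta, the membrane anchor of a cytokine that organises lymphoid tissue, was at 0.404, 0.372 and 0.476 CPM in WT mice under INT-747 and at 0.266, 0.223 and 0.392 CPM in WT mice under NR. In Tg26 mice Ltb was at 0.463, 0.958 and 0.436 CPM under INT-747 and at 2.37, 1.19 and 0.306 CPM under NR. Replicate 2 under INT-747 and replicates 1 and 2 under NR lay above the WT range, and the other 3 within it. Il2rg (chrX:101264378-101268255), the common gamma chain shared by the receptors of IL-2, IL-4, IL-7, IL-9, IL-15 and IL-21, was the most abundant of the 10. It was at 3.27, 3.46 and 2.34 CPM in WT mice under INT-747 and at 2.62, 2.05 and 1.61 CPM in WT mice under NR. In Tg26 mice Il2rg was at 3.37, 6.39 and 2.13 CPM under INT-747 and at 7.30, 4.36 and 2.41 CPM under NR. The same 3 Tg26 libraries were the highest. The span of Il2rg overlaps Gm20489 on its own strand, and how RSEM divided any shared reads is not known here.

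**Figure D2:**
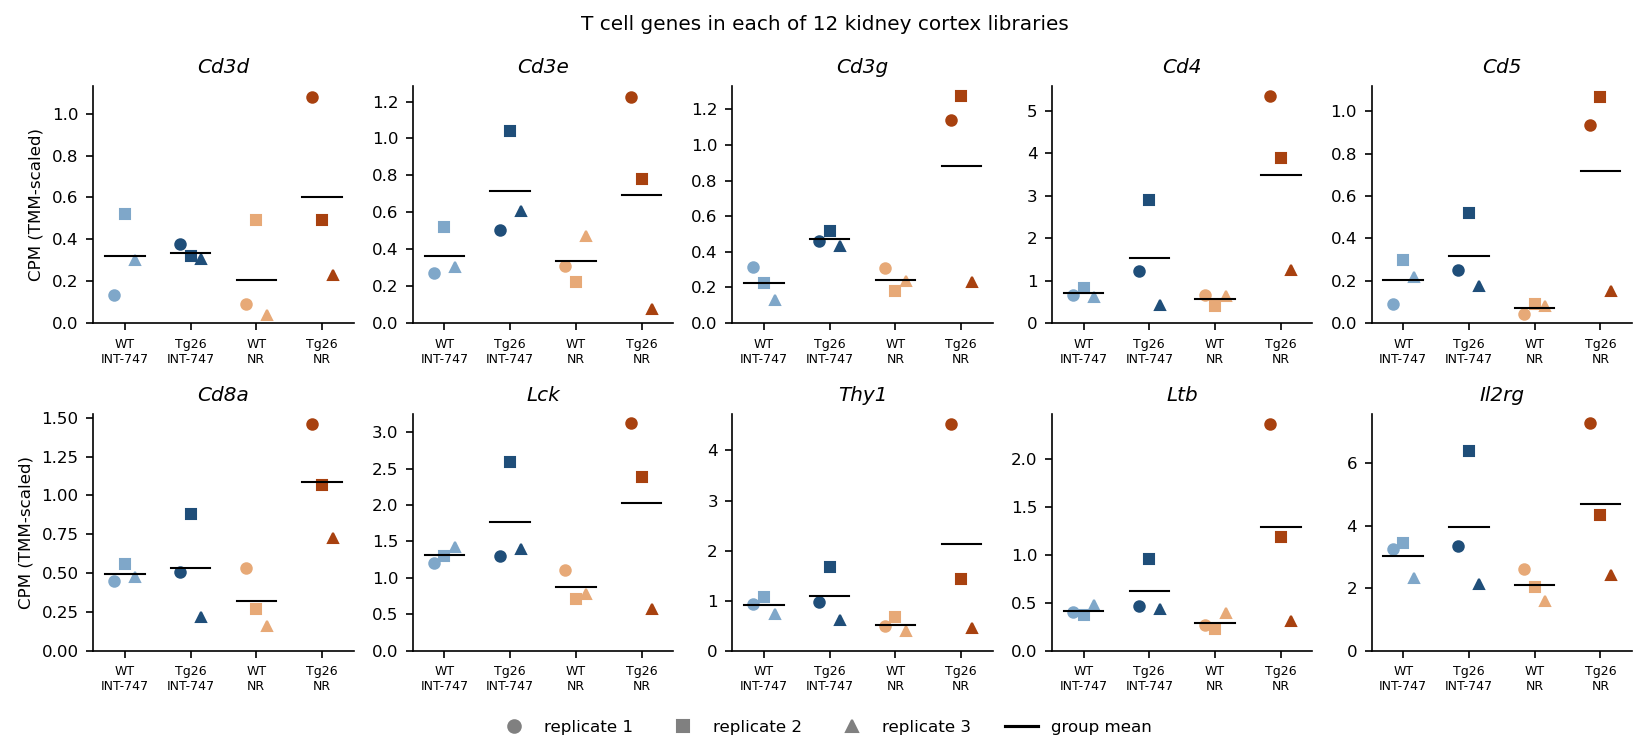
Level of each T cell gene in CPM (y axis, linear from 0, its own scale in each panel) in each of the 12 libraries, by group (x axis), with a line for the group mean and a symbol for the replicate number. In most panels Tg26 replicates 1 and 2 under NR and Tg26 replicate 2 under INT-747 stand above the WT libraries, and Tg26 replicate 3 under NR, the female library, stands among them.

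The libraries with high levels were nearly the same from gene to gene. Tg26 replicate 1 under NR was the highest of the 12 libraries for 8 genes and Tg26 replicate 2 under NR for the other two, Cd3g and Cd5. Summed over the 10 genes, levels were 7.76, 9.15 and 7.01 CPM in WT mice under INT-747 and 6.43, 5.31 and 4.78 CPM in WT mice under NR. In Tg26 mice the sums were 9.43, 17.8 and 6.75 CPM under INT-747 and 28.5, 18.0 and 6.43 CPM under NR. So 3 of 6 Tg26 mice carried sums of 17.8 CPM or more, and the other 3 had sums within or just above the WT range of 4.78 to 9.15 CPM. Relative to the mean of the 6 WT libraries, the female library ranged from 0.219-fold for Cd3e to 2.0-fold for Cd4. Across the 45 pairs of genes, the correlation of levels over the 12 libraries ranged from 0.37 to 0.93 with a median of 0.77, and it was 0.76 after group means were removed. These points share the libraries, their scaling and the 3 high mice, and the lowest values were those of Cd3e with Cd8a and of Cd3d with Cd3e (0.44).

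The make-up of the summed counts differed between libraries. Il2rg took 25.6% and 24.3% of the counts of the 10 genes in Tg26 replicates 1 and 2 under NR and 31.6% to 42.2% in the other 10 libraries. Cd4 took 18.8%, 21.7% and 19.6% in the 3 Tg26 mice under NR and 6.45% to 16.4% in the other 9 libraries. In the 3 Tg26 mice under NR the Cd4 share was thus high whether or not the sum was high.

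Levels between genes are compared as CPM per kilobase of merged exons. On that scale Il2rg was the highest of the 10 and Cd5 the lowest in each of the 4 groups. Lck was second in 3 groups, and Cd4 was second in Tg26 mice under NR, at 0.869 ± 0.513 CPM per kilobase (SD, n = 3), against rank 5 in WT mice under NR at 0.140 ± 0.0354. In Tg26 mice under NR the next levels per kilobase were those of Ltb (0.850 ± 0.681), Thy1 (0.715 ± 0.709) and Lck (0.692 ± 0.448). These SDs are between mice, and the genes were measured in the same 3 mice. Differences between genes were not tested.

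Under NR the Tg26 means of all 10 T cell genes lay above the WT means, though none passed the threshold. All 10 were at least 2-fold higher in the fitted means, as were 7.42% of all genes tested, with a median log2 fold change of 1.81 against −0.01 over all genes. Cd5 stood at a log2 fold change of 3.26 (SE 0.81), from 0.0707 ± 0.0234 to 0.719 ± 0.494 CPM (SD, n = 3), with an adjusted p = 0.125 in edgeR's quasi-likelihood test. Cd4 stood at 2.62 (SE 0.65), from 0.565 ± 0.143 to 3.5 ± 2.07 CPM, at the same adjusted p. The others stood at 2.12 for Ltb, 2.06 for Thy1, 1.85 for Cd3g, 1.77 for Cd8a, 1.57 for Cd3d, 1.23 for Lck, 1.17 for Il2rg and 1.05 for Cd3e, with SEs of 0.45 to 0.80 and adjusted p = 0.139 to 0.422. None of the 10 was called at an adjusted p under 0.05, nor was any gene in the genome (0%). The unadjusted p was under 0.05 for 8 of the 10, all but Cd3d and Cd3e, while 20.7% of all genes had such a p and 11.9% were higher with one. Leaving Cd3g and Cd5 aside, the median was 1.67 and 6 of 8 had such a p. These 6 include Ltb, which reached the filter's level in 1 WT and 4 Tg26 libraries. Cd4 and Cd8a separated the genotypes without overlap, as did Cd5, which passed the filter through Tg26 libraries alone, and 10.2% of all genes in the same direction.

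The NR result depended on which Tg26 mice were counted. Without the female library, Cd4 (3.04), Lck (1.69), Thy1 (2.56) and Ltb (2.60) passed the threshold as higher in Tg26 mice, at adjusted p = 0.0462 in edgeR. They were 4 of the 8 genes with WT counts at the filter's level, which Ltb reached in only 1 WT library. Cd3g (2.32) and Cd5 (3.74), admitted through Tg26 libraries alone, passed the threshold as well, at adjusted p = 0.0462 and 0.0447. Of 16033 genes then tested, 1.80% were called higher. This leaves 2 Tg26 mice in the group, both with high levels. Without replicate 1 the median log2 fold change of the 10 genes fell from 1.81 to 1.08, and 0 of them and 0.00629% of all genes were called. DESeq2, run on all 12 libraries, called Cd4 (adjusted p = 0.00593), Cd5 (0.0230) and Ltb (0.0445), where it called 4.18% of all genes higher. Of the 8 genes other than Cd3g and Cd5 it called 2, Cd4 and Ltb.

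**Figure D3:**
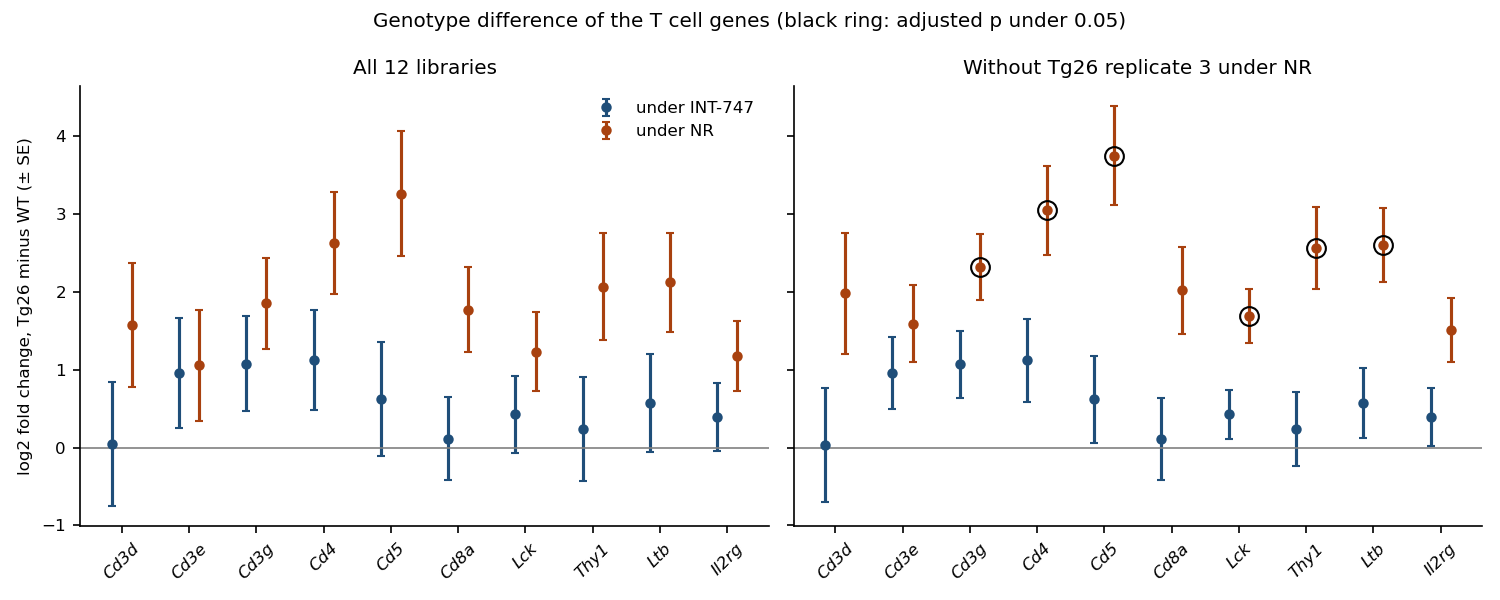
Log2 fold change of Tg26 over WT mice (axis in log2 units, bars for SE) for each T cell gene under INT-747 and under NR, with all 12 libraries (left) and without the female library (right, where rings mark the 6 genes past the threshold). On the left, points for NR lie between 1.05 and 3.26 and those for INT-747 between 0.04 and 1.12.

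**Figure D4:**
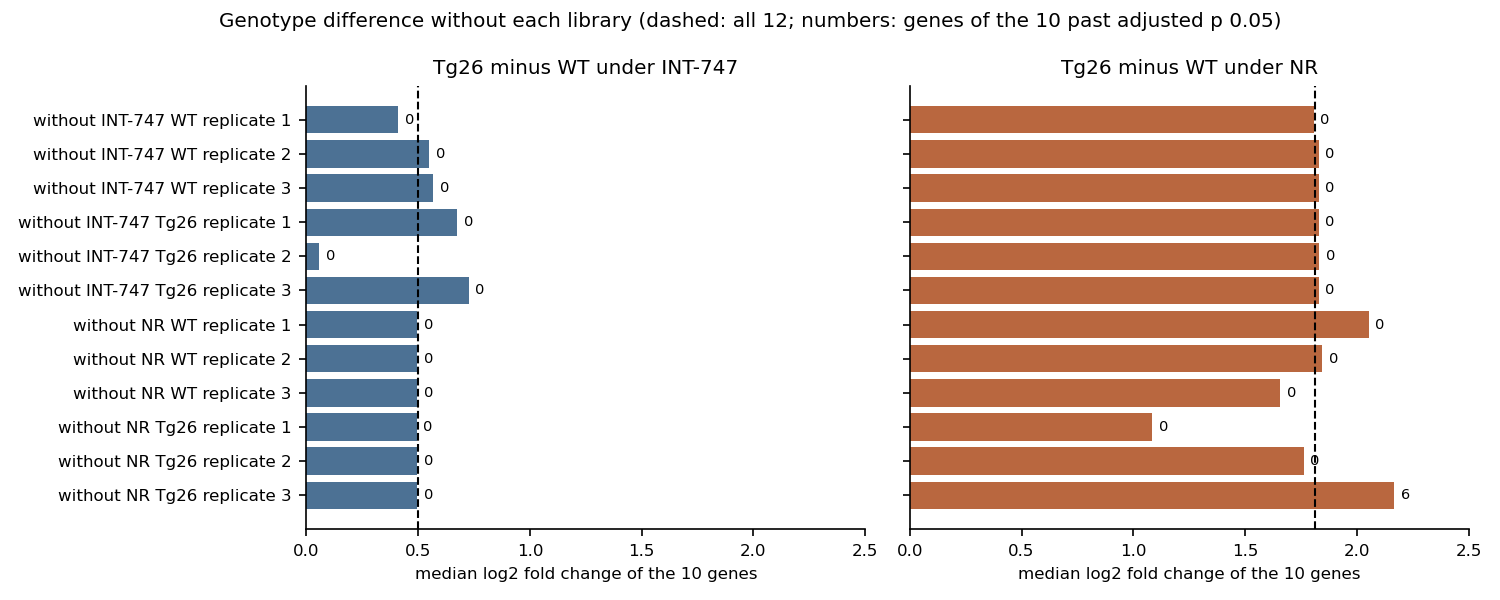
Median log2 fold change of Tg26 over WT mice for the 10 T cell genes (bars, x axis in log2 units) with each library left out in turn (y axis), a dashed line for all 12 libraries and the number of genes past the threshold beside each bar. Under NR it ranges from 1.08 without Tg26 replicate 1 to 2.17 without Tg26 replicate 3, and under INT-747 from 0.06 without Tg26 replicate 2 to 0.73 without Tg26 replicate 3.

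Under INT-747 the same comparison gave smaller values. Cd4 stood at a log2 fold change of 1.12 (SE 0.64, adjusted p = 0.424, edgeR), Cd3g at 1.08 (SE 0.61, adjusted p = 0.418) and Cd3e at 0.96 (SE 0.70). The rest were 0.62 for Cd5, 0.57 for Ltb, 0.43 for Lck, 0.39 for Il2rg, 0.24 for Thy1, 0.11 for Cd8a and 0.04 for Cd3d. None of the 10 was called, where 0.267% of all genes were, and none had an unadjusted p under 0.05, where 15.3% of all genes did. All 10 values were above 0, as were 51.7% of all genes, and the median was 0.50 against 0.01 over all genes. Only Cd3g separated the genotypes, as did 12.5% of all genes, and Cd3g had passed the filter through Tg26 libraries alone. Without Tg26 replicate 2, the high library of this group, the median was 0.06 and Cd8a (−0.46), Thy1 (−0.23) and Il2rg (−0.15) lay below 0.

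Averaged over both treatments, Tg26 mice stood above WT mice for all 10 genes, as did 50.7% of all genes, with a median log2 fold change of 1.08. The largest were Cd5 at 1.94 (SE 0.55), Cd4 at 1.87 (SE 0.46) and Cd3g at 1.46 (SE 0.42). The smallest adjusted p was 0.0891 (Cd4, edgeR), so none was called, where 0.446% of all genes were. The unadjusted p was under 0.05 for 8 of the 10, and for 6 of the 8 other than Cd3g and Cd5, where 11.1% of all genes were higher with such a p. Ltb, at the filter's level in only 1 WT library, is among these 6. Without the female library 7 of the 10 passed the threshold, Cd3e in addition to the 6 named under NR, at adjusted p = 0.0179 to 0.0438, where 4.67% of all genes were called higher. Cd3g and Cd5 are among these 7. Without Tg26 replicate 1 under NR the median fell from 1.08 to 0.72, 0 genes of the 10 were called and 4 had an unadjusted p under 0.05. DESeq2 called Cd3g, Cd4 and Cd5, where it called 4.20% of all genes higher. Of the 8 genes other than Cd3g and Cd5 it called only 1, Cd4.

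Whether the genotype difference itself depended on the treatment was tested as an interaction. All 10 values were below 0, meaning a smaller Tg26 difference under INT-747 than under NR, where 47.7% of all genes were above 0. They ran from −0.09 for Cd3e to −2.64 (SE 1.11, adjusted p = 0.304, edgeR) for Cd5, with a median of −1.52. None was called by edgeR, nor was any gene (0%), while 15.5% of all genes, Cd5 among them, had an unadjusted p under 0.05. DESeq2 called none of the 10 either. Without the female library the median was −1.91 and Cd4, Cd5, Cd8a, Lck, Thy1 and Ltb had an unadjusted p under 0.05, at values of −1.26 to −3.13, where 14.0% of all genes had one. Without Tg26 replicate 1 under NR the median was −0.68 and 0 of the 10 had such a p. None of the 10 was called in either case.

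INT-747 was also compared with NR within each genotype, comparisons that share their groups with those above. In WT mice 9 of the 10 genes stood higher under INT-747, as did 48.7% of all genes, from 0.12 (Cd3e) to 1.46 (Cd5, SE 0.90), and Cd3g stood at −0.12. None was called, where 0.0127% of all genes were. Lck, Cd5 and Thy1 separated the WT groups, as did 6.65% of all genes in that direction. For Cd5 this rests on library scaling at the floor. WT replicate 1 under INT-747 (0.0897 CPM) and WT replicate 2 under NR (0.0892 CPM) had 2 counts each. Cd5 reached the filter's level in no WT library. In Tg26 mice 9 of the 10 stood lower under INT-747, where 46.1% of all genes stood higher, with Cd4 at −1.20 (SE 0.60, adjusted p = 0.217, edgeR), Cd5 at −1.17 and Ltb at −1.06, and Cd3e stood at 0.03. None was called, where 4.38% of all genes were, and all 10 overlapped between the Tg26 groups, where 12.5% of all genes were lower and 15.4% higher without overlap. Without the female library all 10 stood lower under INT-747, with a median of −1.32 in place of −0.94. An unadjusted p under 0.05 was then found for 6 of them, Cd3g, Cd4, Cd5, Cd8a, Thy1 and Ltb, where 24.0% of all genes had one, and the smallest adjusted p was 0.0919 (Ltb, edgeR). Without Tg26 replicate 2 under INT-747 all 10 stood lower as well, with a median of −1.24. Without Tg26 replicate 1 under NR the median was −0.18, and Lck (0.26), Il2rg (0.24) and Thy1 (0.20) lay above 0.

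Markers of other cells moved with the T cell genes from mouse to mouse. The 8 macrophage markers summed to 567 and 262 CPM in Tg26 replicates 1 and 2 under NR and to 329 CPM in Tg26 replicate 2 under INT-747, against 45.2 to 119 CPM in the other 9 libraries. The 7 leukocyte markers summed to 111, 61.2 and 71.7 CPM in those libraries and to 17.8 to 32.7 CPM in the others. The 6 fibroblast markers gave 398, 154 and 194 CPM against 53.0 to 107 CPM. B cell markers were scarce, at 4.47, 2.55 and 2.0 CPM against 0.612 to 1.39 CPM, 4 of the 7 were below the filter, and Ms4a1 was at 0 in 3 libraries. Dendritic cell markers gave 31.1, 23.8 and 28.6 CPM against 9.93 to 13.6 CPM. Neutrophil markers gave 6.95, 4.73 and 3.27 CPM, and 5.35 CPM in Tg26 replicate 1 under INT-747, where the T cell genes were near the WT range. Lymph node stroma markers gave 2.28, 5.30 and 5.23 CPM in those libraries and 6.20 CPM, the highest, in the female library, against 1.69 to 4.66 CPM in WT mice. Kidney cortex markers were lowest, at 9479 CPM, in Tg26 replicate 1 under NR. Endothelial markers were alike in all libraries, at 199 to 269 CPM, and 2 of 6 nerve markers, Th and Snap25, were at 0 throughout. The part that other cells take in the levels of Thy1, Il2rg, Ltb, Cd4 and Cd8a was not tested. Tubular injury markers summed to 1438 and 510 CPM in Tg26 replicates 1 and 2 under NR and to 599 CPM in Tg26 replicate 2 under INT-747, against 219 to 342 CPM in WT mice. In the female library they summed to 961 CPM, while macrophage markers were at 60.6 CPM. The injury sums mainly reflect Spp1, with a mean of 426 CPM over the 12 libraries. Havcr1, Lcn2, Krt20 and Vcam1 had means of 5.14 to 26.9 CPM, so the sums say little about them. The part of tubular injury in the levels of the T cell genes was not tested.

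**Figure D5:**
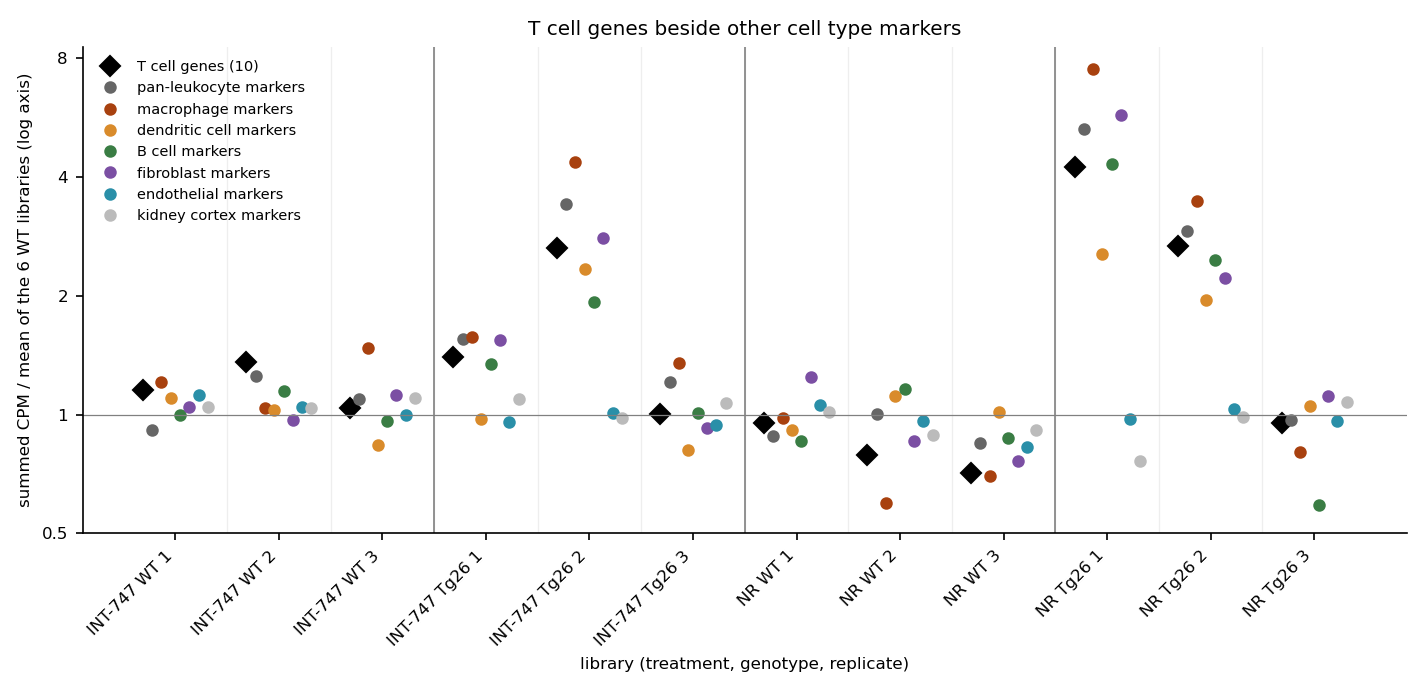
Summed level of the T cell genes and of marker lists relative to the mean of the 6 WT libraries (y axis, fold, log scale) in each library (x axis). T cell genes, macrophage, leukocyte, B cell and fibroblast markers are high in Tg26 replicates 1 and 2 under NR and Tg26 replicate 2 under INT-747, and endothelial and kidney cortex markers are not.

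Other genes were ranked by how closely their levels followed the T cell pattern. The pattern was the mean of the standardised log2 CPM of the 10 genes, and 12199 genes with a mean of at least 1 CPM were ranked by Pearson's r over the 12 libraries. The first was Spi1 (r = 0.99), a transcription factor of myeloid and B cells, followed by the MHC class II gene H2-Ab1 (0.98) and Coro1a (0.98), an actin regulator of leukocytes. H2-Aa, Dock10, Cd74, Myo1g, the complement gene C1qb, Csf2ra and Laptm5 came next, at 0.97 to 0.98. With the 2 libraries of most extreme score left out, Spi1 stood at 0.97 and Laptm5 at 0.92. In all, 208 genes had an r over 0.9. The 10 genes themselves, which make up the score, ran from 0.72 (Cd3d) to 0.95 (Ltb). The limit of 1 CPM leaves out scarce genes of the pathway lists given below, such as Ccr7 (mean 0.424 CPM, r = 0.94) and Tnf (0.192 CPM, r = 0.97). T cell receptor chains such as Trbc2 (r = 0.90) were not ranked. The points share the 3 high mice.

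Other genes of the T cell pathways are given for Tg26 against WT averaged over both treatments, where none of 76 genes tested in the 8 lists was called by edgeR and 11.1% of all genes had an unadjusted p under 0.05 and were higher. DESeq2 called 11 of the 76 higher and 2 lower, where it called 4.20% of all genes higher, 660 of the 1195 it called. Without the female library edgeR called 20 of 81 higher and 1 lower, where it called 4.67% of all genes higher, 748 of the 1223 it called. With no filter, or without Tg26 replicate 2 under NR, edgeR called only Itgae of these lists, among 98 and 284 genes called in all. Of the genes named here Trbc1, Ctla4, Icos, Il2ra, Tnf, Lef1, Foxp3 and Klrb1c reached the filter's level in Tg26 libraries alone, so their being tested and higher are not independent. Of the receptor chains, 4 of 6 could be tested and 2 had such a p: Trbc1 stood at a log2 fold change of 1.32 and Trbc2 at 1.12, both constant regions of the beta chain. Trac, the constant region of the alpha chain, stood at 0.49 and Cd247, the CD3 zeta chain, at 0.18. Trac did not follow the CD3 chains: it had 1.75 CPM in Tg26 replicate 1 under NR, 6.12 in replicate 2 and 0.191 in replicate 3, against 1.15 to 4.5 CPM in WT mice. Of 13 signalling genes tested, 13 were higher, 7 with such a p, among them the adaptors Fyb (1.45), Lcp2 (1.17) and Skap1 (0.98) and the kinase Prkcq (0.44). Of 9 genes of costimulation and checkpoints, 9 were higher and 8 had such a p, but 4 of the 9 had passed the filter through Tg26 libraries alone. Ctla4, an inhibitory receptor prominent on regulatory T cells, stood at 3.39, Cd28 at 1.33, Btla at 1.29 and Icos at 1.08. Ctla4 was at 2.45 and 1.15 CPM in Tg26 replicates 1 and 2 under NR and 1.28 CPM in replicate 2 under INT-747, against 0 to 0.266 CPM in the other 9 libraries.

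Transcription factor genes of T cells were mixed, with 9 of 12 higher. An unadjusted p under 0.05 was found for 5 of the 12, of which 3 were higher and the rest lower. Foxp3, which defines regulatory T cells, had 1.49, 0.658 and 1.12 CPM in the same 3 Tg26 libraries and 0.0372 to 0.210 CPM in the rest, at 1 to 3 counts per WT library. These 3 libraries admitted it to the test, in which it stood at 2.93. Lef1 stood at 1.0, Tcf7 at 0.80 and Bcl11b at −0.38. Along the common gamma chain axis 8 of 13 genes were higher, and 7 of the 13 had such a p, of which 5 were higher and the rest lower. The partner receptor chains Il2ra and Il2rb stood at 1.42 and 0.87, and Il15ra at −0.42 and Stat5b at −0.23. The lymphotoxin axis had 7 of 9 higher, 4 with such a p, with Tnf at 4.28, Ccl19 at 0.94, and the NF-kB subunits Relb at 0.90 and Nfkb2 at 0.44. Tnf had 0 counts in 5 of the 6 WT libraries, so its fold depends on the fit. Among trafficking genes 11 of 11 were higher, 6 with such a p, with the integrin Itgae at 1.65 (SE 0.33, adjusted p = 0.0565, edgeR), Ccr7 at 1.70 and Ccr2 at 1.49. Cytotoxic genes had 5 of 12 tested, all higher and 2 with such a p, with Ccl5 at 2.17, Klrb1c at 1.32, Klrd1 at 0.58 and Nkg7 at 0.37. Gzma, Gzmb, Ifng, Cd8b1 and Il2 were below the filter.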

How the data were processed

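The authors' deposited values are RSEM expected counts per gene, all whole numbers and not scaled to library size. Per the submitters' processing notes, bcl2fastq 2.17, cutadapt 1.18, STAR 2.7.0f, RSEM 1.3.1 and the build mm10 were used. Annotation release and strand setting are not stated in these sources. Libraries were stranded mRNA libraries, per the labels' protocols. Genes were filtered with filterByExpr (minimum count 10, minimum total 15) and scaled by TMM. All 12 libraries entered 1 quasi-likelihood fit with robust estimation in edgeR 4.0.16 (R 4.3.3, limma 3.58.1), with 1 mean per group and 8 residual degrees of freedom. P-values were adjusted by Benjamini-Hochberg over 15708 genes, and called means under 0.05. The common biological coefficient of variation was 0.214. RLE size factors, no filter, DESeq2 1.42.0, only the groups compared, a replicate block and leaving out each library were alternatives. The T cell genes, pathway and marker lists and motifs were chosen with earlier results of these data known. From each pathway list up to 4 genes of smallest p (genotype, averaged) are named, and the 10 genes most alike, leaving out predicted genes and pseudogenes. Some genes to which this rule applies are not reported here. Nothing states that replicates are separate litters or that equal numbers pair mice, and p-values measure the spread between mice.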

Additional observations from a re-analysis of the deposited data

How the results depend on the processing

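The count of genes called moved with the processing. For Tg26 against WT under INT-747, 42 genes were called in edgeR, 64 with no filter, 525 with DESeq2, 11 with a replicate block, 601 with only the groups compared and 0 to 195 with a library left out. Under NR, 0 genes were called (3244 at an unadjusted p under 0.05), 6 with no filter, 967 with DESeq2 and 0 to 785 with a library left out. For INT-747 against NR in WT mice 2 were called, 61 with DESeq2 and 2 to 5 with a library left out. In Tg26 mice 688 were called, 2167 with DESeq2, 71 with a replicate block, 0 with only the groups compared and 0 to 2320 with a library left out. For the averaged genotype 70 were called, 1195 with DESeq2 and 0 to 1223 with a library left out. For the interaction 0 were called (2428 at an unadjusted p under 0.05), 247 with DESeq2 and 0 to 174 with a library left out. Of the 10 T cell genes, DESeq2 called 3 under NR and 3 averaged, and leaving out a library gave 0 to 6 and 0 to 7. Over the 8 genes other than Cd3g and Cd5, DESeq2 called 2 under NR and 1 averaged. The counts of 6 and 7 include Cd3g and Cd5 as well. The median over all 10 genes is given next. Their median log2 fold change ran from 1.08 to 2.17 under NR, from 0.72 to 1.34 averaged, from −1.32 to −0.18 for INT-747 against NR in Tg26 mice and from −1.91 to −0.68 for the interaction.

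Signs of single genes turned in places. With a replicate block the interaction of Cd3e was 0.090. With a library left out, values under INT-747 ran from −0.31 to 0.60 for Cd3d, −0.46 to 0.48 for Cd8a, −0.23 to 0.52 for Thy1 and −0.15 to 0.69 for Il2rg. For INT-747 against NR they ran in WT mice from −0.23 to 0.46 for Cd3e and −0.43 to 0.15 for Cd3g. In Tg26 mice they ran from −0.51 to 0.75 for Cd3e, −0.66 to 0.26 for Lck, −1.49 to 0.20 for Thy1 and −0.80 to 0.24 for Il2rg. The interaction of Cd3e ran from −0.64 to 0.63 and the averaged value of Trac from −0.20 to 0.95. The cause was not tested. With only the groups compared, 5 to 9 of the 10 genes passed the filter.

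Whether equal replicate numbers pair the mice was not settled. After group means were removed, the median correlation of same-numbered libraries was 0.04, against 0.001 for other numbers. Of the 12 libraries, 6 correlated best with their own number, and such a check cannot exclude pairing. The block left the T cell genes called at 0 in each of the 6 contrasts. Cd3d, Cd3e, Cd3g, Cd5, Cd8a and Ltb had under 20 counts in each WT library.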
